A study of Mus musculus with 7 samples.

Results

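The proteasome is the protease that removes ubiquitin-tagged proteins. Its subunit genes were followed here in mouse hippocampus as 41 genes of the 21965 in the count table: every gene whose symbol is Psma, Psmb, Psmc or Psmd with a number, or Psme1 to Psme4, apart from Psmb8 and Psmb9, which the rule leaves out. The rule uses gene names only and no measured value. After removal of genes with too few counts, 39 of the 41 remained among 14417 genes tested. The other two were Psma8, a testis α subunit, with 4 to 11 counts per library, and Psmb11, a thymus β subunit, with 1 to 6.

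Polyadenylated RNA of whole hippocampus was sequenced in 7 libraries, 3 from untreated mice (Control) and 4 from noise-exposed mice with a hidden hearing loss (NIHHL). Hidden hearing loss is a deficit in which synapses of the inner ear are damaged while hearing thresholds can remain normal. Per the labels the noise was 110 dB for 2 h, and per the series' design text the hippocampus was taken 1 month later, in a search for genes tied to impaired memory. Strain, age and sex are not used here, and nothing in the labels ties a library to its own mouse, so a p-value covers only the spread among these samples, which may be technical. Libraries held 14871367 to 24515138 counts. Tested members had 169 to 5480 counts per library, with a median of 1585. Libraries of 1 group differed beyond counting noise (chi-square per degree of freedom over all genes, 7.73 to 29.3 for each pair). All 12 markers of hippocampal neurons and glia were present, with summed levels of 11669 to 12270 CPM (counts relative to library size, comparable between libraries) in Control and 12481 to 13561 CPM in NIHHL. Choroid plexus markers (10 of 10 detected) summed to 205 to 7142 CPM in Control and to 667 to 8700 CPM in NIHHL, and ependymal markers (9 of 9) to 40.7 to 64.8 and 70.2 to 85.3 CPM. All 10 choroid plexus and all 9 ependymal markers had a fitted log2 fold change (NIHHL minus Control) above 0, as had 8 of the 12 neuron and glia markers. Over all genes tested 50.1% were below 0. The medians were 0.71, 0.53 and 0.10, and 2.26, 0.64 and 0.047 without Control replicate 2. None of these markers was called at an adjusted p under 0.05 by edgeR. No marker of these lists was at 0 in every library. Their part in the proteasome values was not tested. In whole tissue, fewer cells of a type and less RNA per cell cannot be told apart.

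As background, the barrel-shaped 20S core is built of stacked α and β rings, and the proteolytic sites lie on a few β subunits inside it. The 19S particle caps the core: its lid and base bind ubiquitin chains and cut them off, and a ring of ATPases unfolds the protein and threads it in. Other activators can take the place of the 19S particle. Neurons use the proteasome to turn over synaptic proteins. Proteasome genes are known to be induced together when proteolysis is impaired, through the transcription factor Nrf1 (gene Nfe2l1), which binds antioxidant response elements, and many of their promoters also hold CCAAT boxes, the site bound by NF-Y.

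As a description with no test, the promoter letters these factors are known to bind were looked for. RefSeq promoter windows (GRCm38.p6, 250 bases before to 50 after the start) were found for 34 of the 41 members, all but Psma8, Psmb1, Psmb2, Psmb7, Psmc3, Psmd3 and Psmd7. The antioxidant response element core TGACNNNGC, on either strand, was in 6 of the 34 (17.6%) and in 14% of 27025 genes with a window. CCAAT, on either strand, was in 13 of the 34 (38.2%) and in 41.1% of all genes. The members' shares were thus close to those of all genes. The stretches below, each upstream of the start and holding no annotated exon base, show the core in 2 catalytic β subunits and CCAAT in an α and a structural β subunit. Psmb10, which had the lowest fold change of the members, is shown as a window with neither. Each reads 5′ to 3′ along the gene's strand, and capitals mark the match. The stretches lie at chr14:54618023-54618122 (Psmb5, minus strand), chr11:70525257-70525356 (Psmb6, plus), chr7:114276119-114276218 (Psma1, minus), chr11:97703299-97703398 (Psmb3, plus) and chr8:105938445-105938544 (Psmb10, minus).
Psmb5: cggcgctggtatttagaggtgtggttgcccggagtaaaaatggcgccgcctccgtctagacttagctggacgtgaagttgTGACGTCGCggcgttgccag
Psmb6: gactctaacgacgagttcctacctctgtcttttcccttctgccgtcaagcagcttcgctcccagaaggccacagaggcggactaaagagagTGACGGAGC
Psma1: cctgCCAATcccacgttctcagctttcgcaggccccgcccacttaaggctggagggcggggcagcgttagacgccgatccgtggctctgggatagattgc
Psmb3: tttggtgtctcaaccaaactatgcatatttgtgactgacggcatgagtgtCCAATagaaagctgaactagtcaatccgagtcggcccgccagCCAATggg
Psmb10: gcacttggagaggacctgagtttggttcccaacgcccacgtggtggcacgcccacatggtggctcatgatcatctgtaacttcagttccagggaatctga
The core was also in the windows of Psmc6, Psmd12, Psmd9 and Psme4. The median log2 fold change (NIHHL minus Control) was -0.10 over the 6 members with the core, -0.093 over the 12 tested members with CCAAT and -0.088 over the 15 with neither. A match is a description of letters and not of binding.

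The comparison between the groups asked whether the hippocampal proteasome transcripts differed after noise. Of the 39 tested members, 38 had a fitted log2 fold change below 0 and 1 (Psme4) above 0, where 50.1% of all genes tested were below 0. The median was -0.094, and all genes tested had a median of -0.00045. The size was small: members ran from -0.24 (Psmb10) to 0.0065 (Psme4), which is a fitted difference of -15.6% to 0.454%. By edgeR's quasi-likelihood test 0 members were called at an adjusted p under 0.05, and 0% of all genes were. At an unadjusted p under 0.05 there were 0 members, where 3.63% of all genes tested passed. The smallest unadjusted p was 0.0672, for Psmd5, and the smallest adjusted p was 0.996. DESeq2, which called 0.022% of all genes, and limma-voom also called 0 members. The 95% interval of a member's log2 fold change reached 0.130 to 0.432 to either side, with a median of 0.208, so differences of the size seen could not be told from 0 for any single member.

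**Figure D1:**
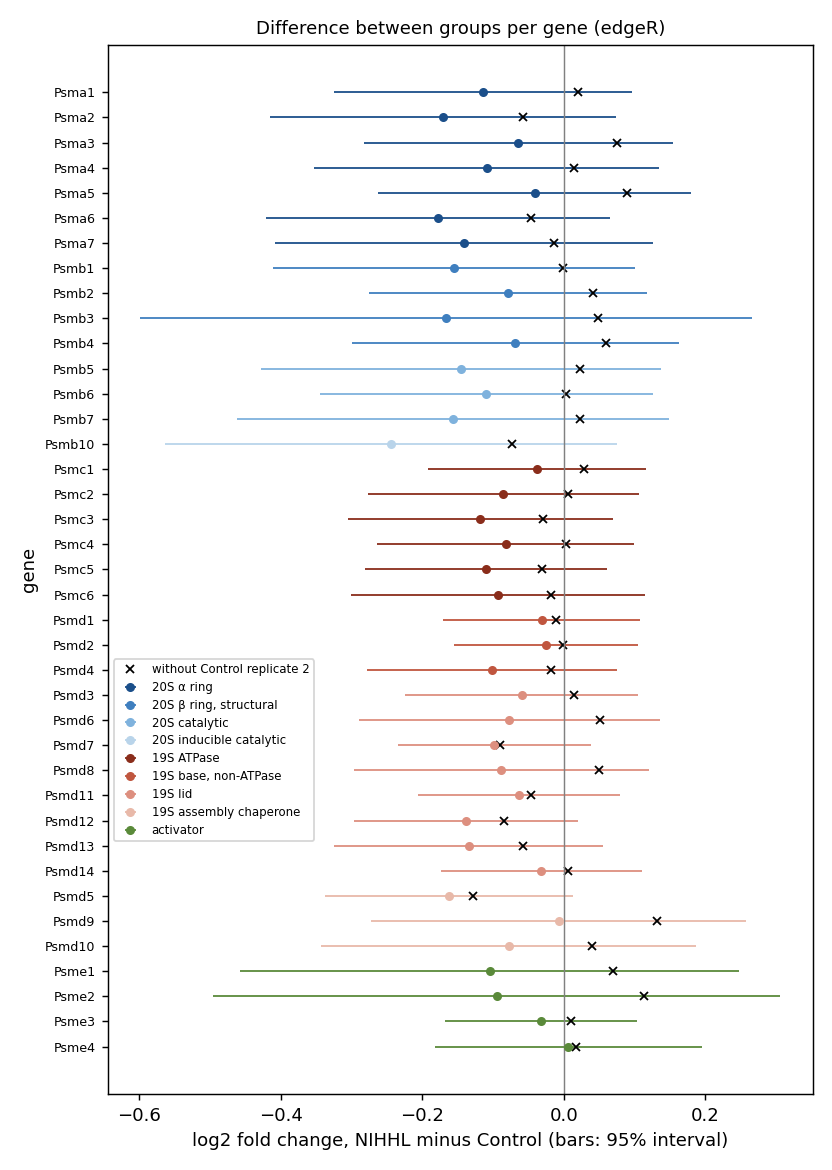
Log2 fold change of each tested member (x axis, NIHHL minus Control, no unit) with its 95% interval from edgeR, by gene (y axis) and coloured by role. Crosses give the value without Control replicate 2. All 39 intervals cross 0, 38 points lie below 0, and 23 of the crosses lie above 0.

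The shared direction was not seen when 1 library, Control replicate 2, was left out. The members' share of all counts was 0.315, 0.388 and 0.352% in the Control libraries, in replicate order, against 0.339, 0.344, 0.347 and 0.307% in the NIHHL libraries. Control replicate 2 was the highest of the 7 and NIHHL replicate 4 the lowest, the other five lay between 0.315 and 0.352%, and the groups overlapped (0.352 ± 0.0362% and 0.334 ± 0.0186%, mean ± SD). Gene by gene, Control replicate 2 was the highest library for 35 of 39 members, where it was the highest for 22.8% of all genes. NIHHL replicate 4 was the lowest for 23 members, against 22.3% of all genes, and Control replicate 1 for 11, against 15.2%. Without Control replicate 2 the median log2 fold change of the members was 0.0067 and 16 of 39 were below 0. Without NIHHL replicate 4 it was -0.055, with 36 below 0. Without Control replicate 1, the lowest of the Control libraries, the median was -0.17 and 10 members, all lower in NIHHL, had an unadjusted p under 0.05 by edgeR, where 5.51% of all genes did. None of them passed adjustment. These 10 were Psma1, Psma2, Psma6, Psmb1, Psmb3, Psmb7, Psmb10, Psmc3, Psmd5 and Psmd12.

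**Figure D2:**
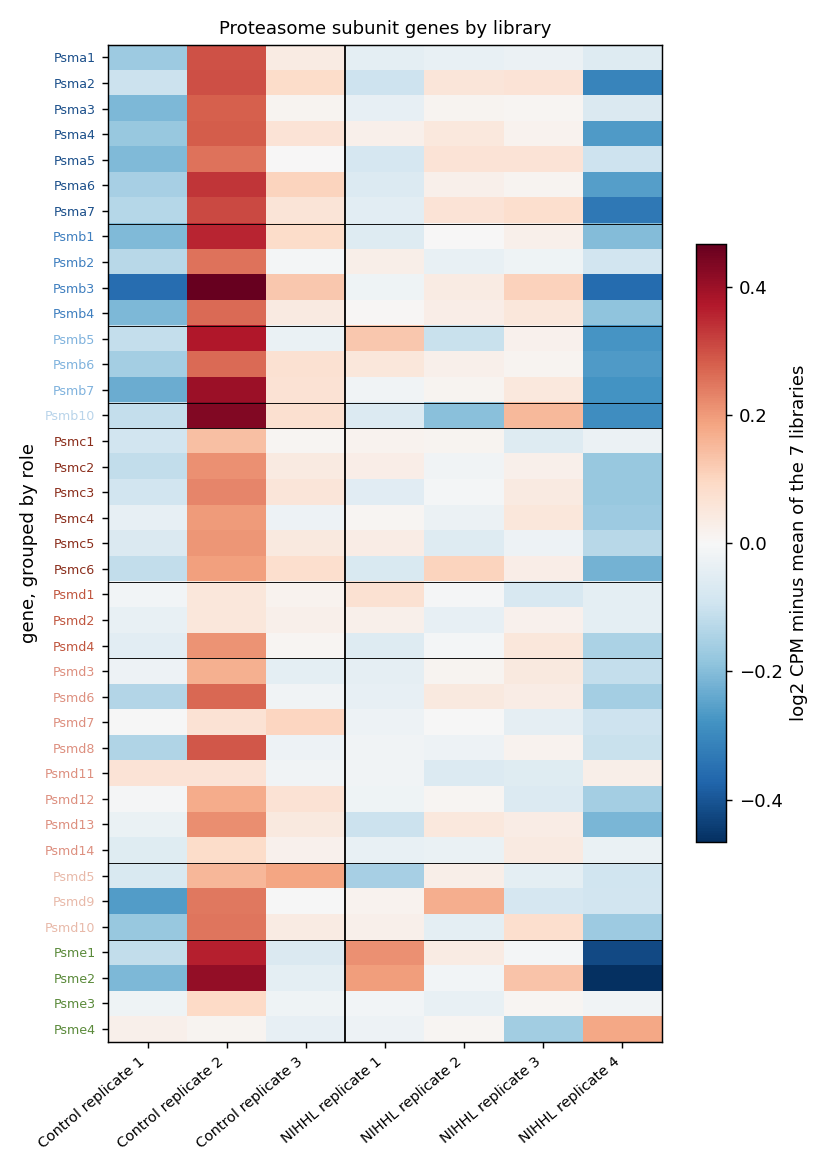
Level of each tested member (rows, grouped by role) in each library (columns), as log2 CPM minus the gene's mean over the 7 libraries; red is above and blue below that mean, and the vertical line parts Control from NIHHL. Control replicate 2 is above the mean for 39 of 39 members; Control replicate 1 and NIHHL replicate 4 are each above it for 2.

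Other gene sets were high and low in the same libraries, and their part in the proteasome values was not tested. Cytosolic ribosomal protein genes took 1.54, 2.17 and 1.86% of counts in the Control libraries, against 1.85, 1.89, 1.92 and 1.33% in the NIHHL ones. Nuclear genes of oxidative phosphorylation took 0.950, 1.29 and 1.12%, and 1.13, 1.05, 1.12 and 0.873%. Both sets were highest in Control replicate 2 and lowest in NIHHL replicate 4, as the proteasome genes were. Of the ribosomal genes 76 of 78 were lower in NIHHL by fitted fold change (median -0.11, and 0.040 without Control replicate 2), and of the oxidative phosphorylation genes 83 of 89 (median -0.15, and 0.013 without it). Over all genes, a library's deviation from the mean was related to transcript length, with Spearman's rho of 0.40, -0.57 and -0.081 in the Control libraries, against -0.16, 0.065, -0.28 and 0.51 in the NIHHL ones. Short transcripts were thus relatively high in Control replicate 2 and relatively low in Control replicate 1 and NIHHL replicate 4. With each library's trend on length taken out, the median log2 fold change of the members was -0.036, 33 of 39 were below 0, and the median deviation of Control replicate 2 was 0.10 in place of 0.25 (log2). Psmd5 then was the 1 member at an unadjusted p under 0.05, where 5.24% of all genes were, and none passed adjustment.

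**Figure D3:**
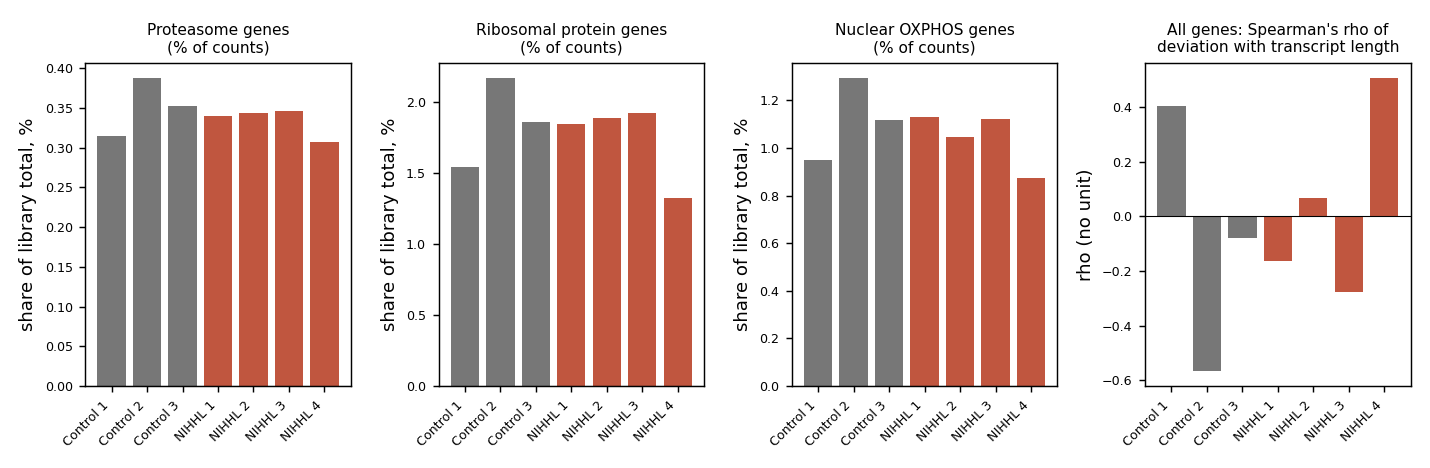
Share of each library's counts (y axis, %) in proteasome, ribosomal protein and nuclear oxidative phosphorylation (OXPHOS) genes, and, in the last panel, Spearman's rho across genes between the library's deviation and transcript length; grey bars are Control and red bars NIHHL libraries. Control replicate 2 has the highest shares (0.388, 2.17 and 1.29%) and the lowest rho (-0.57), and NIHHL replicate 4 the lowest shares (0.307, 1.33 and 0.873%) and the highest rho (0.51).

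Within the proteasome genes the same order by length was seen. Over the 39 members, log2 fold change and transcript length had a Spearman's rho of 0.42, and of -0.32 without Control replicate 2; members share the libraries and are not independent points. The 13 members with the shortest transcripts (766 to 1239 bases) had a median of -0.11, the middle 13 (1311 to 1785 bases) of -0.088 and the longest 13 (1904 to 6491 bases) of -0.063, with 12 of the last 13 below 0. Without Control replicate 2 the medians were 0.023, 0.0026 and -0.011. With each library's trend on length taken out they were -0.036, -0.042 and -0.043.

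**Figure D4:**
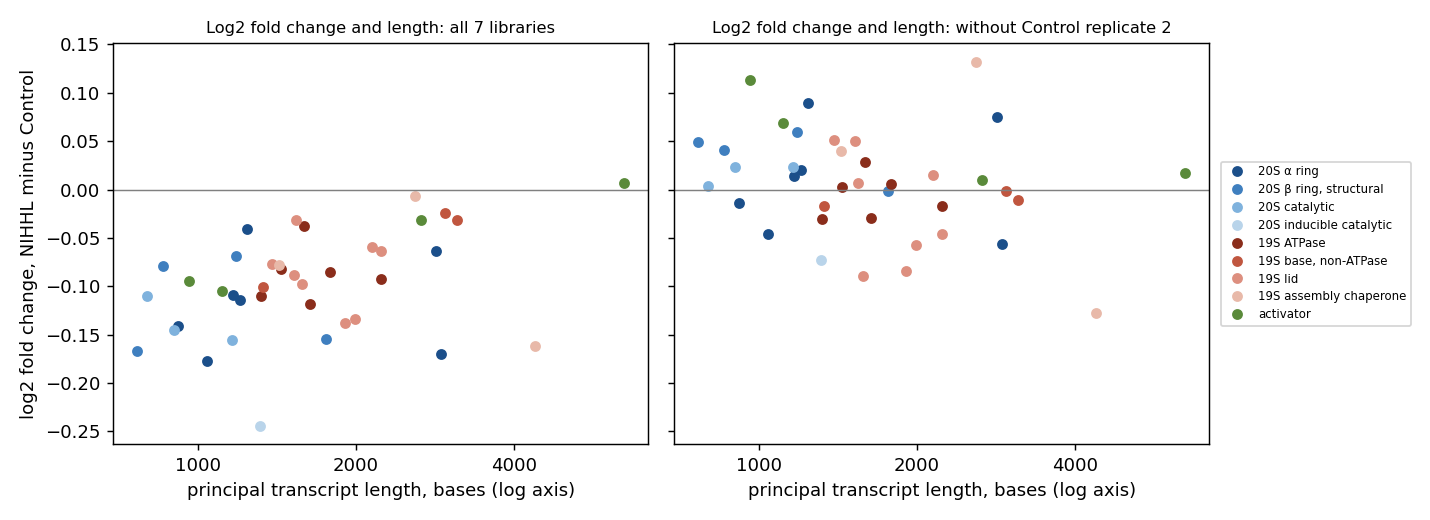
Log2 fold change of each tested member (y axis, NIHHL minus Control) against its transcript length (x axis, bases, log scale). All 7 libraries are on the left, and Control replicate 2 is left out on the right. Colours give the role. On the left 38 of 39 points lie below 0 and the shortest transcripts tend to lie lowest (rho 0.42); on the right 16 lie below 0 (rho -0.32).

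By role, the 20S core genes lay lowest. All 15 tested core genes had a fold change below 0 (median log2 -0.14), as had all 20 genes of the 19S particle and its assembly chaperones (median -0.084) and 3 of the 4 activators (median -0.063). The median deviation of core genes was 0.30 in Control replicate 2 and -0.26 in NIHHL replicate 4 (log2), and that of 19S genes 0.19 and -0.12. Without Control replicate 2 the medians of the fold changes were 0.020 for the core, -0.0063 for the 19S particle and 0.043 for the activators. Of the 13 shortest transcripts 11 are core transcripts. With each library's trend on length taken out, the medians were -0.046 for the core, -0.039 for the 19S particle and -0.026 for the activators. The order of the roles was not tested.

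The 7 tested α subunits form the outer rings, which gate entry to the core. Psma6 had the smallest p among them. It was at 93.8, 131.6 and 112.1 CPM in the Control libraries, against 99.9, 106.1, 105.2 and 87.3 CPM in the NIHHL ones. Control replicate 2 stood highest, NIHHL replicate 4 lowest, and the other libraries of both groups overlapped. Its log2 fold change was -0.18 (SE 0.11, 95% interval -0.42 to 0.066, unadjusted p = 0.137 by edgeR), and -0.046 without Control replicate 2. The others ran from -0.041 (Psma5) to -0.17 (Psma2), with Psma1, Psma3, Psma4 and Psma7 between. Psma1 was the steadiest member in NIHHL, at 75.0 to 76.8 CPM over the 4 libraries, inside its Control range of 69.6 to 96.2 CPM.

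Of the structural β subunits, which complete the inner rings without a proteolytic site, Psmb1 had the smallest p. Its levels were 125.6, 185.4 and 153.4 CPM in Control, against 138.9, 145.0, 147.2 and 125.9 CPM in NIHHL. Control replicates 1 and 2 bracketed all NIHHL libraries. The log2 fold change was -0.15 (SE 0.12), and -0.0012 without Control replicate 2. Psmb2, Psmb3 and Psmb4 were at -0.079, -0.17 and -0.068, and at 0.041, 0.049 and 0.059 without that library. Psmb3, the member with the shortest transcript, varied most among Control libraries (60.6, 107.0 and 84.6 CPM, a coefficient of variation of 27.6%).

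The 3 constitutive catalytic subunits overlapped between the groups. Psmb5, which carries the chymotrypsin-like site, was at 69.6, 97.4 and 73.7 CPM in Control, against 82.1, 70.1, 76.3 and 62.1 CPM in NIHHL. Psmb6, with the caspase-like site, was at 59.1, 79.3 and 69.2 CPM and at 68.3, 67.1, 66.5 and 55.0 CPM. Psmb7, with the trypsin-like site, was at 100.9, 156.2 and 124.3 CPM and at 117.3, 119.5, 122.6 and 97.7 CPM. For each of them Control replicate 2 was the highest and NIHHL replicate 4 the lowest library. Their log2 fold changes were -0.14 (SE 0.13), -0.11 (SE 0.11) and -0.16 (SE 0.14), and 0.023, 0.0031 and 0.023 without Control replicate 2. Exons of Psmb7 overlap those of Nek6 on the other strand by 405 bases, and the strand setting of the counting is not stated. Exons of Psma4, Psma5, Psmb5, Psmc3, Psmd1, Psmd3, Psmd9, Psmd13 and Psme1 overlap other genes too, so reads there may have been counted for either gene.

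Psmb10, an interferon-inducible subunit that takes the place of Psmb7 in the immunoproteasome, had the lowest fold change and low expression. It was at 13.9, 20.3 and 15.8 CPM in Control, against 14.4, 13.1, 16.7 and 12.3 CPM in NIHHL. Control replicate 2 again stood above the rest, and the groups overlapped. The log2 fold change was -0.24 (SE 0.15, 95% interval -0.56 to 0.075, unadjusted p = 0.120 by edgeR), and -0.073 without Control replicate 2. Its inducible partners outside the rule had low levels, Psmb8 at 3.57 ± 0.724 CPM in Control and 3.63 ± 0.634 in NIHHL, and Psmb9 at 1.24 ± 0.443 and 1.31 ± 0.305 (mean ± SD). The 13 interferon response genes summed to 204 to 249 CPM in Control and 201 to 247 CPM in NIHHL, and the 8 microglial markers to 498 to 530 and 470 to 587 CPM. The summed levels of both lists overlapped between the groups. Gene by gene, 11 of the 13 interferon response genes had a fold change above 0, where 50.1% of all genes tested were below 0. Their median log2 fold change was 0.19, and 0.31 without Control replicate 2. That of Psmb10 was below 0, and a relation between them was not tested. None of the 13 was called at an adjusted p under 0.05 by edgeR.

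The 6 ATPases, which unfold substrates and open the core, had log2 fold changes of -0.038 (Psmc1) to -0.12 (Psmc3), with Psmc2, Psmc4, Psmc5 and Psmc6 between. Psmc5 was at 106.9, 129.3 and 115.6 CPM in Control, against 114.8, 107.4, 110.2 and 102.4 CPM in NIHHL. The groups overlapped, with Control replicate 2 highest. Its log2 fold change was -0.11 (SE 0.078), and -0.030 without that library. Of the base subunits without ATPase activity, the large scaffolds Psmd1 and Psmd2 were nearly level, at 122.4 ± 2.71 and 119.8 ± 5.23 CPM and at 223.8 ± 6.79 and 220.0 ± 5.52 CPM (Control and NIHHL, mean ± SD). Psmd1 had the lowest variation among Control libraries of all members (coefficient of variation 2.22%). The ubiquitin receptor Psmd4 was at 84.1, 100.6 and 87.6 CPM in Control, against 83.5, 86.5, 90.2 and 78.5 CPM in NIHHL. Its log2 fold change was -0.10 (SE 0.080), and -0.017 without Control replicate 2.

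All 8 lid subunits had a fold change below 0, between -0.032 (Psmd14) and -0.14 (Psmd12). Psmd12 was at 66.7, 75.6 and 70.1 CPM in Control, against 66.0, 67.4, 64.0 and 60.0 CPM in NIHHL. Only NIHHL replicate 2 lay above the lowest Control library. Its log2 fold change was -0.14 (SE 0.072, unadjusted p = 0.0815 by edgeR), and -0.085 without Control replicate 2. Psmd14, the deubiquitinase that cuts ubiquitin chains from substrates, was at 77.6, 85.7 and 81.9 CPM in Control, against 78.8, 79.0, 83.1 and 79.0 CPM in NIHHL. All 4 NIHHL values lay within the Control range, and the log2 fold change was -0.032 (SE 0.065), and 0.0067 without Control replicate 2. Psmd7, its partner without enzymatic activity, was the 1 member whose groups did not overlap, and is described for that reason after its values were seen. It was at 95.9, 100.6 and 102.9 CPM in Control, against 94.3, 95.7, 93.1 and 89.8 CPM in NIHHL. The nearest values of the groups, 95.7 and 95.9 CPM, almost met, and the log2 fold change was -0.098 (SE 0.062, unadjusted p = 0.143 by edgeR). It was -0.089 without Control replicate 2 and -0.072 without that library and NIHHL replicate 4. Over all genes tested the groups did not overlap for 5.2%, with NIHHL below for 2.37% and above for 2.84%. The other lid genes, Psmd3, Psmd6, Psmd8, Psmd11 and Psmd13, ran from -0.059 to -0.13.

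The 3 assembly chaperones hold 19S base intermediates and leave before the proteasome is complete. Psmd5 had the smallest p of all members. It was at 68.8, 80.5 and 82.1 CPM in Control, against 64.8, 73.6, 70.0 and 67.7 CPM in NIHHL. Control replicate 1 lay among the NIHHL libraries, and the other two Control libraries above them. The log2 fold change was -0.16 (SE 0.080, 95% interval -0.34 to 0.014, unadjusted p = 0.0672 and adjusted p = 0.996 by edgeR). Its value was -0.13 without Control replicate 2 and -0.18 with the length trend taken out. By p it had rank 741 among the 14417 genes. Psmd9 and Psmd10 were at 24.3 ± 4.25 and 24.3 ± 2.05 CPM and at 13.3 ± 1.96 and 12.6 ± 0.925 CPM (Control and NIHHL, mean ± SD). Exons of Psmd9 overlap a gene on the other strand by 1849 bases.

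The activators differed among themselves in how much they varied. Psme1 and Psme2, the interferon-inducible pair that forms a ring cap, were at 35.1, 48.8 and 36.2 CPM and 17.5, 26.9 and 19.7 CPM in Control. In NIHHL they were at 44.0, 39.0, 37.7 and 28.3 CPM and 23.2, 20.1, 22.2 and 14.7 CPM. Both were highest in Control replicate 2 and lowest in NIHHL replicate 4, and their log2 fold changes of -0.10 (SE 0.16) and -0.094 (SE 0.18) were 0.069 and 0.11 without Control replicate 2. Psme2 has a near-identical copy, Psme2b, among the counted genes, and its counts carry decimals, so its level is uncertain. Counts of 2 other members, Psmb7 and Psmd1, carry decimals too. Psme3, the nuclear activator, was at 113.5, 122.8 and 113.6 CPM in Control, against 114.1, 112.4, 116.0 and 113.9 CPM in NIHHL, a log2 fold change of -0.032 (SE 0.062), and of 0.0098 without Control replicate 2. Psme4, the largest activator and the member with the longest transcript, was at 41.7, 41.4 and 39.9 CPM in Control, against 40.4, 41.3, 36.7 and 46.5 CPM in NIHHL. It was the 1 member that was highest in NIHHL replicate 4, and its log2 fold change was 0.0065 (SE 0.086), and -0.055 without that library.

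Levels were also compared between genes per length of transcript. In Control the 14 constitutive core genes ran from 37.8 (Psma3) to 112 CPM per kilobase (Psmb4), a 2.97-fold range with a median of 88.7. The 17 ATPase, base and lid genes ran from 25.4 (Psmd11) to 102 CPM per kilobase (Psmc3), a 4.03-fold range with a median of 53.2. Psmb10, at 12.7 CPM per kilobase, and the 3 chaperones, at 9.30 to 17.5, lay below all of these. The activators ran from 6.32 (Psme4) to 43.8 (Psme3). These levels depend on which isoform's length is taken. Psma3 and Psma2 (37.8 and 38.7) were assigned 2846 and 2911 bases. The next lowest constitutive core gene was Psma5, at 60.1 with 1239 bases.

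**Figure D5:**
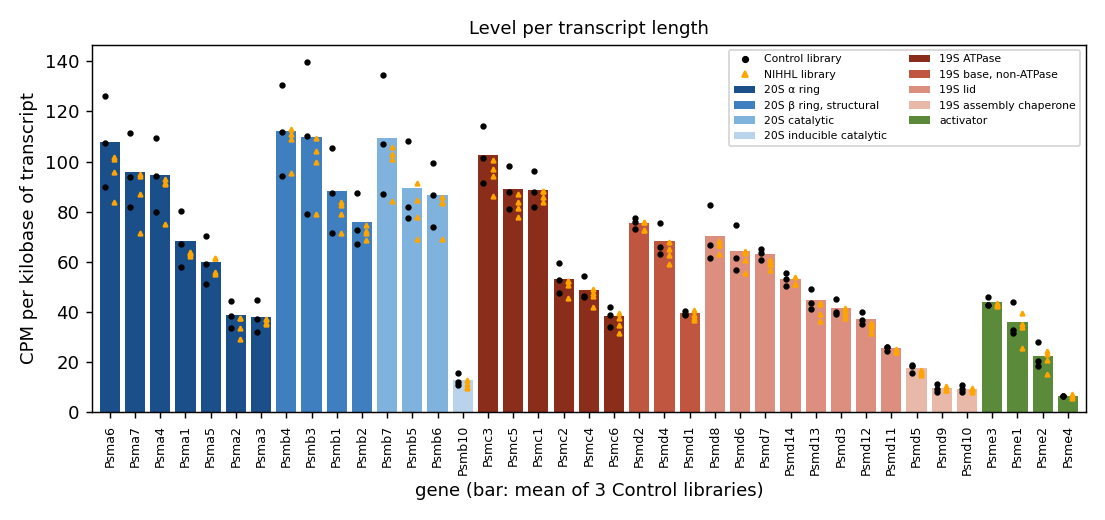
Level of each tested member per kilobase of transcript (y axis, CPM per kilobase), by gene (x axis) and coloured by role. Bars are the mean of 3 Control libraries, circles the Control libraries and triangles the NIHHL libraries. Constitutive core genes reach from 37.8 to 112, Psmb10 is at 12.7, the chaperones at 9.30 to 17.5 and the activators at 6.32 to 43.8.

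Genes that work around the proteasome were split in direction. Of 50 tested genes in 6 lists (assembly and maturation, bound proteins, transcriptional control, ubiquitin and its activation, shuttles, neuronal ubiquitin enzymes), 29 were below 0 and 21 above, with a median log2 fold change of -0.024, and edgeR called 0 at an adjusted p under 0.05. One, Uchl1, a neuronal ubiquitin hydrolase, had an unadjusted p under 0.05, where 3.63% of all genes tested did, so 1 of 50 is not above the background. It was at 333.0, 425.0 and 348.8 CPM in Control, against 323.4, 324.2, 331.5 and 290.8 CPM in NIHHL. Every NIHHL library lay below every Control library, as for 2.37% of all genes, the nearest being 331.5 and 333.0 CPM. The log2 fold change was -0.22 (SE 0.088, unadjusted p = 0.0317 and adjusted p = 0.996 by edgeR). It was -0.0996 without Control replicate 2, -0.29 without Control replicate 1 and -0.14 with the length trend taken out. Exons of Uchl1 overlap an antisense gene by 295 bases, and Usp14, Psmb8 and Psmb9 overlap other genes as well. Of the 5 genes for assembly of the core, 4 were below 0 (median -0.11), and 2 without Control replicate 2 (median 0.019). Psmg1, a chaperone of the α ring, was at 9.30, 12.6 and 10.1 CPM in Control, against 8.01, 9.42, 9.64 and 6.08 CPM in NIHHL, with a log2 fold change of -0.37 (SE 0.17, unadjusted p = 0.0510 by edgeR). It was -0.23 without Control replicate 2 and -0.11 without that library and NIHHL replicate 4. Without Control replicate 1 it was -0.46, and with the length trend taken out -0.29. In each of these last settings Psmg1 and Uchl1 had an unadjusted p under 0.05 by edgeR, where 5.51% and 5.24% of all genes did. Neither gene passed adjustment there. Pomp, which matures the β ring, was at 93.8 ± 17.7 and 85.7 ± 10.4 CPM (mean ± SD), with a log2 fold change of -0.13, and of 0.019 without Control replicate 2.

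Of 8 genes in the transcriptional control of proteasome genes, 6 were above 0 and the median was 0.055. Nfe2l1 itself was at 281.4, 295.2 and 284.3 CPM in Control, against 292.8, 260.7, 266.7 and 278.7 CPM in NIHHL, which overlapped. Its log2 fold change was -0.063 (SE 0.063), -0.037 without NIHHL replicate 2, -0.095 without NIHHL replicate 1 and -0.039 without Control replicate 2. Its relative Nfe2l2, the oxidative stress factor, was at 22.5 ± 2.15 and 24.9 ± 1.13 CPM (0.14, SE 0.091, and 0.089 without Control replicate 1 or 0.22 without Control replicate 3), and Stt3b, a subunit of the oligosaccharyltransferase, at 94.1 ± 4.29 and 102.9 ± 5.88 CPM (0.13, SE 0.070). Of the proteasome-bound proteins, Sem1, a small lid subunit, was at -0.23 on the log2 scale (SE 0.14), at -0.065 without Control replicate 2 and at -0.13 without NIHHL replicate 4. The deubiquitinase Usp14 was at -0.079 (SE 0.083), at -0.039 without NIHHL replicate 3, at -0.047 without NIHHL replicate 1 and at -0.15 without NIHHL replicate 4. Without Control replicate 2 and NIHHL replicate 4 it was at -0.16 (unadjusted p = 0.0318 by edgeR). In that setting 1041 of 14508 genes had an unadjusted p under 0.05. Nfyc, of the transcriptional control list, was among them at 0.20 (unadjusted p = 0.0257 by edgeR), and neither gene passed adjustment. The polyubiquitin gene Ubb was at 1689 ± 247 CPM in Control and 1615 ± 77.0 CPM in NIHHL (mean ± SD), with a log2 fold change of -0.065, and of 0.056 without Control replicate 2.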

How the data were processed

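The authors deposited 1 table of expected counts per gene, with a column for each of the 7 libraries and no scaling to library size; 90.7% of its values are whole. Per the submitters' processing notes, Bowtie2 2.2.8, HISAT2, StringTie 1.3.1 and DESeq2 were used, with no role named. For the genome build, annotation, strand setting and counting, nothing is given in the sources used here.

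Counts were rounded, genes filtered with filterByExpr (minimum count 10), libraries scaled by TMM, and NIHHL compared with Control by edgeR 4.0.16 (quasi-likelihood, robust, group as the term; R 4.3.3, limma 3.58.1, DESeq2 1.42.0). P-values were adjusted by Benjamini-Hochberg over all 14417 genes tested, which hold 99.96% of counts. The standard error (SE) was taken from the log2 fold change and the F statistic. CPM values use the TMM factors. Transcript length is the mean over a gene's principal GENCODE transcripts (GRCm38), or the median of its basic-set transcripts where none is principal. The length trend is a loess fit per library (span 0.5). The procedure was tested on simulated data. The simulated differences were larger than those of the members, and no length trend was simulated.

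Named genes followed a rule: the member with the smallest p in each role, the catalytic subunits, Psmc5, Psmd14, all activators, the highest and lowest fold change, and, of the other pathway lists, the 6 smallest p and 7 chosen genes. Some of these genes are not reported here. Members, lists and the library omissions were chosen with earlier results of these data known. Alternatives covered scaling, test, filter, replicate block, length and left-out libraries.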

Additional observations from a re-analysis of the deposited data

Results flagged for a closer look

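Of 51 gene levels looked at over the 4 NIHHL libraries, 4 had 1 library far from the other three by Dixon's criterion, which sets its gap to the nearest library against the whole range. NIHHL replicate 4 was low for Psma4 (87.2 CPM against 106.2 to 108.6 in the others), for Psmb6 (55.0 CPM against 66.5 to 68.3) and for the maturation factor Pomp (70.3 CPM against 88.6 to 92.3). NIHHL replicate 3 was high for Psmd14 (83.1 CPM against 78.8 to 79.0). Chance alone marks about 1 in 20 such groups.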

How the results depend on the processing

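Scaling by RLE or upper quartile factors, limma-voom and a minimum count of 50 left 38 of 39 members below 0 and 0 genes called. Over all genes DESeq2 called 4 (mt-Atp8, Hsd3b1, Akr1cl and Dnah6, none a member), and leaving out both Control replicate 2 and NIHHL replicate 4 called 1 (Gcat). Members with a fitted log2 fold change above 0 numbered 3 by DESeq2 and 3 without a low-count filter. Both of these counts are of all 41 members, with Psma8 and Psmb11. The number was 6 with the length trend removed and 30 without both Control replicate 2 and NIHHL replicate 4. With 1 library left out it was 0 to 23, with 23 without Control replicate 2. The median log2 fold change of the members was 0.043 without both libraries and ran from -0.17 to 0.0067 with 1 left out. The cause was not tested.

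Sign changes are listed for the genes picked by the naming rule, and other members changed sign too. Without both libraries the sign turned for Psma6 (0.011), Psmb1 (0.043), Psmb5 (0.090), Psmb6 (0.069) and Psmb7 (0.090) of the core. Of the 19S particle and the activators it turned for Psmd14 (0.012), Psmd4 (0.017), Psme1 (0.18), Psme2 (0.23), Psme3 (0.011) and Psme4 (-0.046). Outside the members it turned for Sem1 (0.032), Pomp (0.10) and Ubb (0.089). With the length trend removed it turned for Psmd14 (0.015) and Psme4 (-0.032). Of the members not picked by the rule, Psma5 (0.031), Psmb2 (0.027), Psmb4 (0.0058), Psmc1 (0.0085) and Psmd9 (0.0048) then turned above 0. With 1 library left out, log2 fold changes ran from -0.24 to 0.023 for Psmb5, from -0.21 to 0.0031 for Psmb6, from -0.30 to 0.023 for Psmb7, from -0.067 to 0.0067 for Psmd14, from -0.20 to 0.069 for Psme1, from -0.21 to 0.11 for Psme2, from -0.051 to 0.0098 for Psme3, from -0.055 to 0.058 for Psme4, from -0.26 to 0.019 for Pomp, from -0.16 to 0.056 for Ubb, from -0.11 to 0.18 for Psmb8 and from -0.15 to 0.42 for Psmb9.

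With the replicate number as a block the median of the members was -0.037, 3 members were above 0, and 0 genes were called. No Control library has the number 4, so NIHHL replicate 4 did not bear on the difference between groups in that fit. Of the genes picked by the naming rule, Psme1 (0.019) and Psme2 (0.052) turned above 0 and Psme4 (-0.058) below 0. The remaining member above 0 was not among those genes. Psme1 (0.0071), Psme2 (0.030) and Psme4 (-0.055) also changed sign when NIHHL replicate 4 alone was left out. Deviations of same-numbered libraries correlated at -0.448, -0.445 and 0.0612, and not every library correlated best with its own number, so the numbers were not taken as pairs.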
